A study of Mus musculus with 89 samples.

Results

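The comparison described here asks what the loss of Esrrb did to the transcriptome of mouse embryonic stem cells (ESCs) that already lacked Nr5a2 and were kept in 2i/LIF. It rests on 6 RNA-seq libraries of the 89 samples in the series, taken by the names in their labels, with no measured value used to choose them. All 6 come from EKOiE NrKO cells. EKOiE cells have their endogenous Esrrb gene knocked out and carry a 3xFlag-tagged Esrrb transgene under a TetO promoter, which is on in doxycycline (Dox) and shut off when Dox is withdrawn. In EKOiE NrKO cells both Nr5a2 alleles are disrupted as well. The 3 −N libraries (Nr5a2 lost, Esrrb present) are of NrKO cells held in Dox at 1 µg/ml. The 3 −E−N libraries (both lost) are of NrKO cells cultured for 2 days without it. The 6 libraries therefore share the Esrrb knockout, the transgene, the Nr5a2 disruption and the medium, and differ in Dox and with it in the transgene. The same withdrawal in EKOiE cells with intact Nr5a2 gave 3 +E+N and 3 −E libraries in 2i/LIF, and in NrKO cells in FCS/LIF it gave 2 libraries for each state. The +E+N and −E libraries were also part of the main fit, where they bear on the genes kept, the scaling and the estimate of spread. The FCS/LIF libraries are used only where the responses are compared and in an alternative fit.

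Esrrb and Nr5a2 are orphan nuclear receptors, transcription factors of the hormone receptor family that act in ESCs without a known regulated ligand. Both bind as monomers to an extended half-site, a short element whose 5′ extension is read by a part of the receptor next to its zinc fingers, and the seventh base of the element can be T or C. Esrrb is known as a support of naive pluripotency, the state of the preimplantation epiblast, together with Klf4, Tfcp2l1, Tbx3, Prdm14 and others. 2i/LIF holds cells in that state by inhibiting Mek, by inhibiting Gsk3, which frees beta-catenin from degradation, and by LIF, which activates Stat3.

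The Nr5a2 disruption lies in an exon that codes for the start of the DNA-binding domain. This is exon 4 of the 9 exons of transcript Nr5a2-205, 119 bp at chr1:136944959-136945077 in mm10, on the minus strand. The unedited reference sequence is shown to mark what the NrKO alleles lose in part or whole, 5′ to 3′ on the strand of the gene:
Nr5a2 exon 4: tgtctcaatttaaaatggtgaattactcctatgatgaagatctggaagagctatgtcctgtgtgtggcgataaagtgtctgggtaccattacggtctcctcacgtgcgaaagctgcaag
The study derived 2 NrKO clones, and no label gives the clone sequenced here. The supplementary methods speak of RNA-seq reads over the disrupted alleles in clone 4. In these libraries effects of the line and of missing Nr5a2 cannot be told apart. The paper reports that repair of an Nr5a2 allele restored self-renewal and reversed changes measured by qPCR, in cells that are not among these libraries. The replicates are samples of a line, so that p-values measure the spread between cultures or preparations and not between lines.

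The 6 libraries held between 26653035 and 30685767 counts, with 2.84% to 3.43% of them from mitochondrial genes. Between replicates, chi-square divided by its degrees of freedom ran from 7.05 to 31.1, well over sampling noise, so that no library counted as a repeat of another. −E−N 3 (the third replicate of −E−N, as −N 1 to −N 3 name those of −N) stood apart: its score on the first principal component was 53.2, against 43.5 and 42.6 for −E−N 1 and −E−N 2 and 4.41 to 7.57 for −N. It also had the least Esrrb transcript. Values are CPM, counts scaled to a common library size of 1e+06, which compare a gene between libraries and not one gene with another. The markers of ESCs were present in all 6 libraries, with Pou5f1 (Oct4) at 1248, 1253 and 1259 CPM (−N) against 1090.2, 1039 and 730.2 (−E−N). Of 10 fibroblast genes, used as a check for feeder cells, Col3a1, Lum, Dcn, Postn and Fap had 20 counts or fewer in all 6 libraries, and the list summed to 12.4 to 20.1 CPM in −N and 13.1 to 23.7 in −E−N. None of the 5 that could be tested was called by edgeR, 1 had an unadjusted p under 0.05 and DESeq2 called 1.

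Esrrb (ENSMUSG00000021255, chr12:86361117-86521628, plus strand) was at 406, 522 and 519 CPM (−N) against 169.8, 160.2 and 104 (−E−N). The 2 states did not overlap, and the transcript fell 3.33-fold (log2 fold change −1.74 ± 0.16, adjusted p = 3.14e-05; ± is the standard error, n = 3 libraries per state, and adjusted p is that of the edgeR quasi-likelihood test after Benjamini-Hochberg adjustment over all genes tested). The call held with any of the 6 libraries left out, at log2 fold changes from −1.87 to −1.55. The counts do not separate transcript of the transgene from that of the disrupted endogenous gene, so the remaining 104 to 170 CPM cannot be assigned to either. In the parental EKOiE cells the same withdrawal gave 506, 601 and 599 CPM with Dox and 440.2, 426 and 375 without, a log2 fold change of −0.46 ± 0.16, adjusted p = 0.116. The difference between these 2 falls was −1.28 ± 0.22, adjusted p = 0.0186, which does not pass the limit of 0.01 used here.

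Nr5a2 (ENSMUSG00000026398, chr1:136842571-136960448, minus strand) was at 76.8, 63.2 and 62.999 CPM (−N) against 45.7, 34.3 and 20.99 (−E−N). These reads come from the disrupted alleles, whose transcript is still made and counted. It fell 2.01-fold (log2 fold change −1.01 ± 0.21, adjusted p = 0.00582), with the lowest value in −E−N 3. The call was lost without −E−N 2 (adjusted p = 0.0201), −N 1 (0.0208), −N 2 (0.0164) or −N 3 (0.0144), with the log2 fold change between −1.30 and −0.76 over the 6 fits.

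Of 14355 genes tested, 970 (6.76%) were called, at an adjusted p under 0.01 and a fold change over 1.5. They divided almost evenly, with 487 higher in −E−N (3.39%) and 483 lower (3.36%). 107 of the higher and 105 of the lower genes changed more than 4-fold. All 970 moved the same way in all 3 same-numbered pairs, and in all 970 the 2 states did not overlap, as was so for 38.0% of the genes tested. Genes that pass these limits with 3 libraries per state tend to meet both, so neither adds support to the calls. No label pairs the libraries, but by their values the replicate numbers appeared to, less clearly for replicate 2. The main fit does not use the number. The fit with the number as a block called 1622 genes (11.3%), 936 higher (6.52%) and 686 lower (4.78%), of which 969 were among the 970. Without −N 2 the count was 510, without −N 3 it was 561 and without −E−N 3 it was 599, and the rises were the more affected, with 180, 249 and 248 called, while the falls numbered 330, 312 and 351. RNA was measured in bulk, so that fewer cells with a transcript and less transcript per cell cannot be told apart.

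**Figure D1:**
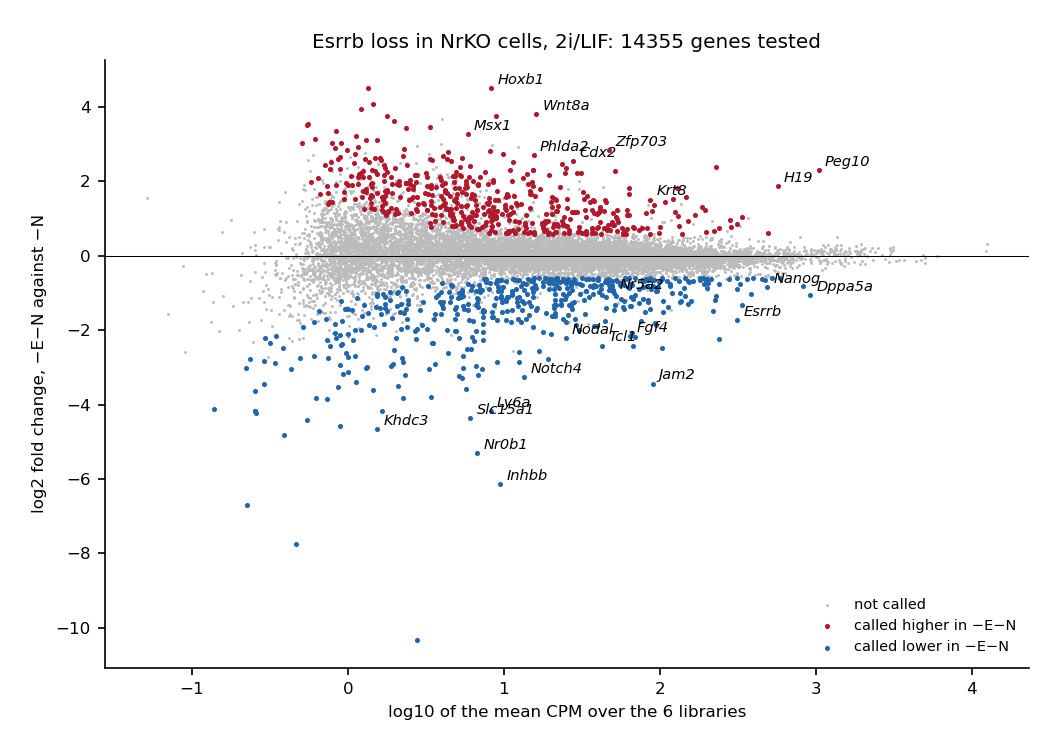
Log2 fold change (−E−N against −N, vertical axis) of the 14355 genes tested against the log10 of their mean CPM over the 6 libraries (horizontal axis). Each point is a gene, red where called higher (487), blue where called lower (483) and grey where not called. Genes at or near 0 counts in one state, such as the 3 points below that of Inhbb, are drawn at their fitted value, which is no measure of their fold.

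The deepest falls (called genes averaging 100 counts or more) were in genes of unlike kinds. Inhbb, the beta B subunit of activin and inhibin (chr1:119415465-119422248), was at 5.08, 20.5 and 30.4 CPM (−N) against 0.195, 0.211 and 0.373 (−E−N) (log2 fold change −6.14 ± 0.78, adjusted p = 0.000271), and its −N libraries were spread widely. Nr0b1 (Dax1; chrX:86191764-86195947), a nuclear receptor without the usual DNA-binding domain that works with pluripotency factors, was at 12.8, 13.1 and 13.4 CPM (−N) against 0.586, 0.176 and 0.203 (−E−N) (log2 fold change −5.31 ± 0.45, adjusted p = 1.72e-05). It was steady over the −N libraries and nearly gone in −E−N, at 18, 5 and 6 counts. Slc15a1, a carrier of small peptides, was at 12.5, 9.95 and 12.4 CPM (−N) against 0.977, 0.211 and 0.475 (−E−N) (log2 fold change −4.36 ± 0.32, adjusted p = 7.53e-06). Ly6a (Sca-1), a surface protein of many stem cells, was at 12.4, 16.4 and 17.9 CPM (−N) against 0.880, 0.739 and 0.950 (−E−N) (log2 fold change −4.18 ± 0.18, adjusted p = 1.73e-07). Jam2, a junctional adhesion molecule, was at 143, 163 and 188 CPM (−N) against 17.4, 16.5 and 11.5 (−E−N) (log2 fold change −3.44 ± 0.17, adjusted p = 3.70e-07). The others named by size were Stmn3, a binder of tubulin (−3.59, from 10.8, 9.73 and 11.2 CPM to 1.60, 0.528 and 0.475), Rapgef3, a cAMP-gated exchange factor (−3.30), the receptor Notch4 (−3.26), the muscle methyltransferase Smyd1 (−3.23), the ganglioside enzyme St8sia1 (−3.21) and the peptidase Dpp4 (−3.04). Without −E−N 1 the falls of Nr0b1 (−6.08), Slc15a1 (−5.06) and Stmn3 (−4.39) were deeper by over 1.5 times. Each of these 11 genes was called in all 6 fits that left out 1 library, and in none did the states overlap.

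The largest rises were named by the same rule. Hoxb1, an anterior Hox gene (chr11:96365752-96368256), was at 0.142, 0.254 and 1.70 CPM (−N) against 5.34, 10.7 and 31.8 (−E−N) (log2 fold change 4.52 ± 0.94, adjusted p = 0.00565). It rose in every pair but was spread widely over −E−N, and the call was lost without −E−N 2, −E−N 3, −N 1 or −N 2, with a log2 fold change of 3.52 to 6.30 and an adjusted p of up to 0.0324 over the 6 fits. Wnt8a, a ligand of the primitive streak, was at 1.24, 1.74 and 3.43 CPM (−N) against 15.8, 22.6 and 51.7 (−E−N) (log2 fold change 3.81 ± 0.59, adjusted p = 0.000992). Msx1, a homeobox gene that responds to Bmp, was at 0.853, 1.27 and 1.18 CPM (−N) against 3.03, 8.49 and 20.3 (−E−N) (log2 fold change 3.26 ± 0.56, adjusted p = 0.00179). Both were called without any 1 library, though without −E−N 3 the log2 fold change was 3.16 for Wnt8a and 2.38 for Msx1. Gadd45g, a growth arrest gene, was more even at 2.88, 2.54 and 2.29 CPM (−N) against 18.6, 14.4 and 18.7 (−E−N) (log2 fold change 2.74 ± 0.27, adjusted p = 5.22e-05), as was Sdk1, an adhesion molecule, at 0.853, 1.34 and 1.07 CPM (−N) against 7.14, 6.37 and 7.63 (−E−N) (log2 fold change 2.69 ± 0.37, adjusted p = 0.000436). The secreted protein gene Scube1 rose from 1.35, 1.16 and 0.849 CPM to 6.78, 6.16 and 10.2 (log2 fold change 2.78 ± 0.29, adjusted p = 7.13e-05). Zfp703 and Zfp503 code for related zinc finger repressors. Zfp703 was at 8.25, 10.2 and 16.7 CPM (−N) against 41.8, 50.3 and 158 (−E−N) (log2 fold change 2.83 ± 0.48, adjusted p = 0.00174) and lost its call without −N 2, and without −E−N 3 its log2 fold change was 1.97. Zfp503 was at 1.85, 1.23 and 3.03 CPM (−N) against 8.44, 9.82 and 24.5 (−E−N) (log2 fold change 2.80 ± 0.53, adjusted p = 0.0032) and lost it without −E−N 3, −N 1 or −N 2, with 2.16 where −E−N 3 was left out. Tshz1 (2.63) and Tmem92 (2.60) were called, but not without −E−N 2, −E−N 3, −N 1, −N 2 or −N 3 for the first and −E−N 2, −E−N 3, −N 1 or −N 2 for the second, with an adjusted p of up to 0.0446 and 0.0427. Without −E−N 3 their log2 fold changes were 1.43 and 1.91, and without −N 3 that of Tmem92 was 3.36. Sprr2a2 (log2 fold change 3.76) has near-identical copies beside it, between which reads are divided by estimation, and is uncertain (3.02 without −E−N 3 and 4.46 without −N 1).

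Counts of calls in this and the later gene lists are to be read against all genes tested. Of these, 3.39% were called higher and 3.36% lower. Of the 16 naive pluripotency genes, all tested, 10 fell, 1 rose and 5 did not pass, with a median log2 fold change of −0.91 against 0.02 over all genes. Beyond Nr0b1 and Jam2, the deepest falls were those of Tcl1, a coactivator of Akt (79.1, 73.3 and 63.5 CPM (−N) against 15.8, 16.5 and 8.28 (−E−N), log2 fold change −2.41 ± 0.21, adjusted p = 2.06e-05), and Spic, an Ets factor (7.61, 4.86 and 4.95 CPM (−N) against 1.69, 0.775 and 0.950 (−E−N), log2 fold change −2.34 ± 0.46, adjusted p = 0.00389), which lost its call without −E−N 2, −E−N 3, −N 1 or −N 2. The Kruppel-like factor Klf4 was at 67.2, 85.1 and 100.4 CPM (−N) against 28.6, 34.2 and 35.1 (−E−N) (log2 fold change −1.37 ± 0.15, adjusted p = 8.69e-05). Dppa5a, a marker of pluripotent cells, was at 1285, 1203 and 1269.6 CPM (−N) against 672, 649 and 470.3 (−E−N) (log2 fold change −1.07 ± 0.11, adjusted p = 8.18e-05). The states did not overlap in either. Tbx3, a T-box factor, fell from 112, 129 and 139 CPM to 63.1, 70.4 and 62.2 (log2 fold change −0.96 ± 0.12, adjusted p = 0.000184). Zfp42 (Rex1), the usual reporter of the naive state, fell from 342, 450.3 and 429 to 215, 255 and 193 (log2 fold change −0.88 ± 0.11, adjusted p = 0.000243). Prdm14, which represses Fgf receptors and DNA methyltransferases, fell from 34.9, 31.98 and 35.2 to 19.9, 20.8 and 18.96 (log2 fold change −0.77 ± 0.080, adjusted p = 6.42e-05). Tfcp2l1, the Esrrb partner in the LIF response, stood at the edge of the limits (665, 602 and 613 CPM (−N) against 492, 446 and 312 (−E−N), log2 fold change −0.59 ± 0.13, adjusted p = 0.00898) and kept its call in 1 of the 6 fits with a library left out, that without −E−N 1. The number of naive genes called lower lay between 8 and 11 over these fits.

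1 naive gene went the other way. Gbx2, a homeobox factor downstream of Stat3, was at 81.3, 82.6 and 88.4 CPM (−N) against 164, 181 and 185 (−E−N) (log2 fold change 1.07 ± 0.11, adjusted p = 5.22e-05) and was called in every fit with a library left out. Dppa3 (Stella) was also higher, at 78.5, 39.8 and 24.6 CPM (−N) against 133, 110.0 and 122 (−E−N), without passing (adjusted p = 0.012), and passed with the replicate block (1.44, adjusted p = 0.000869). Klf2 (log2 fold change −0.25, adjusted p = 0.165) and Klf5 (−0.31, adjusted p = 0.318), relatives of Klf4, did not pass. Pecam1 (−0.60) and Tdh (−0.93) passed with the block (adjusted p = 0.00124 and 0.000802) and not without it (0.027 and 0.0351).

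Of 12 core and general pluripotency genes, 5 fell and 1 rose, with a median of −0.54. Fgf4, the ligand through which ESCs activate Erk, was at 102, 108 and 106 CPM (−N) against 27.99, 26.02 and 16.9 (−E−N) (log2 fold change −2.16 ± 0.20, adjusted p = 2.65e-05). Nanog fell from 564, 632 and 679 CPM to 369, 343 and 333 (log2 fold change −0.84 ± 0.095, adjusted p = 0.000108). Both were called without any 1 library. Sox2 was at 212, 266 and 251 CPM (−N) against 129, 163 and 139 (−E−N) (log2 fold change −0.76 ± 0.14, adjusted p = 0.0027), with the call lost without −E−N 1, −E−N 3, −N 2 or −N 3. Tdgf1 (Cripto), the Nodal co-receptor, was at 214, 354 and 403 CPM (−N) against 85.1, 132 and 129 (−E−N) (log2 fold change −1.49 ± 0.28, adjusted p = 0.00286), lost without −E−N 1, −N 2 or −N 3. Dppa2, a chromatin factor, was at 116, 143 and 151 CPM (−N) against 86.5, 90.7 and 76.8 (−E−N) (log2 fold change −0.69 ± 0.13, adjusted p = 0.0028), lost without −E−N 3, −N 2 or −N 3. Over these fits the count of core genes called lower ran from 2 (without −N 2 or −N 3) to 6. Pou5f1, whose values were given above, did not pass (log2 fold change −0.39 ± 0.13, adjusted p = 0.0496), and its lowest library was −E−N 3. The chromatin gene Utf1 had a log2 fold change of −1.83 that passed only with the block (−1.74, adjusted p = 4.47e-05). Lin28a, an RNA-binding protein that blocks let-7, was the 1 core gene that rose, at 133, 119.9 and 96.2 CPM (−N) against 268, 280.3 and 265 (−E−N) (log2 fold change 1.22 ± 0.19, adjusted p = 0.00116), and was called in all fits with a library left out.

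**Figure D2:**
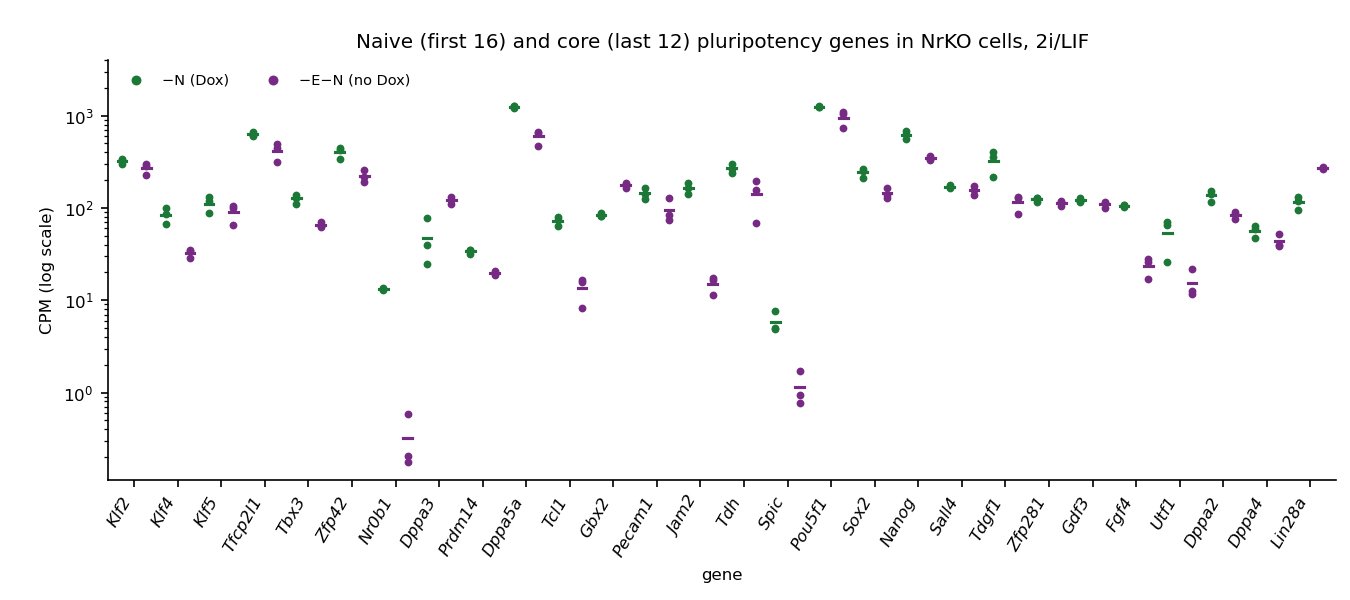
CPM on a log scale (vertical axis) of the 16 naive and 12 core pluripotency genes (horizontal axis) in each −N (green) and −E−N (purple) library, with a bar at the mean of 3. Nr0b1 lies at 12.8 to 13.4 CPM in −N and at 0.586 or less in −E−N, Pou5f1 stays within 730.2 to 1259 CPM, and Gbx2, Dppa3 and Lin28a are higher in −E−N.

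LIF signals through Lifr and Il6st (gp130) to Jak kinases and Stat3. Of 11 genes of this pathway 3 fell, none rose, and the median was −0.02. Pim1, a kinase gene that Stat3 turns on, was at 84.4, 82.9 and 81.8 CPM (−N) against 35.5, 40.95 and 30.02 (−E−N) (log2 fold change −1.23 ± 0.096, adjusted p = 1.04e-05). The receptor gene Lifr was at 56.2, 54.5 and 50.6 CPM (−N) against 32.2, 32.4 and 18.2 (−E−N) (log2 fold change −0.96 ± 0.17, adjusted p = 0.00227), and lost its call without −N 2. Its partner Il6st was at 105, 95.7 and 94.6 CPM (−N) against 64.9, 65.2 and 62.000 (−E−N) (log2 fold change −0.62 ± 0.068, adjusted p = 9.39e-05), and lost it without −N 1, with log2 fold changes of −0.65 to −0.57 around the fold limit. In each gene the states did not overlap.

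Of 11 genes of the Nodal and activin pathway 5 fell, none rose, and the median was −0.78. Inhbb and Tdgf1 are among the 5. Nodal itself, the ligand, was at 38.2, 41.1 and 43.7 CPM (−N) against 12.5, 7.54 and 6.24 (−E−N) (log2 fold change −2.22 ± 0.23, adjusted p = 6.68e-05). Smad7, an inhibitory Smad, was at 41.5, 54.6 and 48.01 CPM (−N) against 21.8, 26.1 and 19.3 (−E−N) (log2 fold change −1.10 ± 0.14, adjusted p = 0.000328). Both were called without any 1 library. Lefty2, a secreted Nodal antagonist, was at 35.3, 41.7 and 27.5 CPM (−N) against 20.04, 12.4 and 19.3 (−E−N) (log2 fold change −1.01 ± 0.20, adjusted p = 0.00425), with the call lost without −E−N 2, −N 1 or −N 2. Its relative Lefty1 was at 61.7, 84.3 and 60.5 CPM (−N) against 67.4, 36.9 and 64.8 (−E−N), where the states overlap (adjusted p = 0.419).

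Wnt feedback and Tcf/Lef genes, which the beta-catenin that the Gsk3 inhibitor stabilises acts on, included rises and no falls: 4 of 15 rose and the median was 0.57. Lef1, which binds beta-catenin on DNA, was at 9.07, 5.41 and 5.39 CPM (−N) against 24.8, 26.65 and 21.03 (−E−N) (log2 fold change 1.87 ± 0.25, adjusted p = 0.000332) and was called without any 1 library. Sp5, a zinc finger factor of the streak, was at 88.03, 49.2 and 34.3 CPM (−N) against 197, 225 and 179 (−E−N) (log2 fold change 1.81 ± 0.36, adjusted p = 0.00443), with its −N libraries spread widely. Lgr5, the R-spondin receptor, was at 0.924, 0.871 and 0.443 CPM (−N) against 2.77, 4.51 and 4.95 (−E−N) (log2 fold change 2.44 ± 0.40, adjusted p = 0.00225). The feedback inhibitor Nkd1 was at 3.66, 1.9968 and 3.03 CPM (−N) against 4.76, 6.34 and 7.53 (−E−N) (log2 fold change 1.10 ± 0.25, adjusted p = 0.00991). The calls of Sp5 were lost without −E−N 1, −E−N 2, −N 2 or −N 3, those of Lgr5 without −N 2 or −N 3 and those of Nkd1 without −E−N 2, −E−N 3, −N 2 or −N 3. With the block 6 were called, the others being Axin2, at 102, 70.7 and 51.1 CPM (−N) against 143, 146 and 131 (−E−N) (block 0.96, adjusted p = 0.000215), and the antagonist Dkk1 (block 1.34, adjusted p = 0.00367), and over the fits with a library left out 1 (without −N 2) to 6.

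Of 15 formative and primed epiblast genes 3 fell and 1, Lef1, rose. Otx2, the factor that opens the formative state, had 6, 18 and 15 counts in −N and 0, 2 and 1 in −E−N (adjusted p = 0.00516). These are too few for a fold, and the call was lost without −E−N 1, −E−N 2, −E−N 3, −N 2 or −N 3. Foxd3, a forkhead factor of ESCs and epiblast, was at 13.3, 22.3 and 18.9 CPM (−N) against 6.97, 10.1 and 6.58 (−E−N) (log2 fold change −1.21 ± 0.20, adjusted p = 0.00168). Etv4, an Ets factor induced by Erk, was at 63.5, 103 and 112 CPM (−N) against 32.1, 56.4 and 35.4 (−E−N) (log2 fold change −1.17 ± 0.21, adjusted p = 0.00243), lost without −E−N 3, −N 2 or −N 3. With the block 7 were called, among them Zic5 lower (−0.59, adjusted p = 0.000141) and Cdh2 (N-cadherin, 1.45, adjusted p = 6.37e-05) and Sox3 (1.15, adjusted p = 0.00197) higher. Of 13 Erk response genes only Etv4 (lower) and Phlda1, at 2.13, 3.16 and 3.80 CPM (−N) against 6.13, 7.54 and 9.23 (−E−N) (log2 fold change 1.33 ± 0.24, adjusted p = 0.00219; lost without −E−N 3 or −N 2), were called, and with the block the Erk phosphatase gene Dusp4 (1.23, adjusted p = 0.001).

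Among 10 genes of DNA methylation, 2 of the dioxygenases that oxidise methylcytosine fell and 1 gene rose. Tet1 was at 285, 334 and 321 CPM (−N) against 159.8, 157 and 93.03 (−E−N) (log2 fold change −1.20 ± 0.16, adjusted p = 0.000402) and Tet2 at 69.2, 98.8 and 110.4 CPM (−N) against 43.4, 44.3 and 47.2 (−E−N) (log2 fold change −1.05 ± 0.18, adjusted p = 0.00164), both called without any 1 library. Dnmt3l, the cofactor of the de novo methyltransferases, was higher, at 36.2, 37.8 and 38.7 CPM (−N) against 88.6, 71.7 and 49.7 (−E−N) (log2 fold change 0.90 ± 0.20, adjusted p = 0.00828). Its call held only without −E−N 3. Dnmt3b was at 195, 184 and 159 CPM (−N) against 247, 263 and 216 (−E−N), short of the limits (log2 fold change 0.43 ± 0.12, adjusted p = 0.0204).

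The subcortical maternal complex is an assembly of oocyte proteins, some of which are transcribed in ESCs. 4 of its 6 listed genes were tested and 2 fell in all fits. Khdc3 (Filia; chr9:73101836-73104438) was at 1.42, 3.41 and 4.06 CPM (−N) against 0.0652, 0.141 and 0.136 (−E−N) (log2 fold change −4.66 ± 0.47, adjusted p = 5.58e-05), where −E−N held 2, 4 and 4 counts. Ooep was at 54.96, 64.6 and 75.96 CPM (−N) against 25.97, 25.5 and 22.5 (−E−N) (log2 fold change −1.40 ± 0.11, adjusted p = 1.48e-05). In neither gene did the states overlap.

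4 promoters of genes that fell are shown. They were picked because they hold the half-site of Esrrb and Nr5a2 within 250 bases before the start. They do not stand for the genes that fell at large. Khdc3 and Zfp42 are listed genes. Mitf, a basic helix-loop-helix factor (27.6, 24.1 and 21.3 CPM (−N) against 6.78, 7.46 and 5.16 (−E−N), log2 fold change −1.91 ± 0.17, adjusted p = 2.43e-05), and Bhmt, an enzyme of methionine synthesis (6.54, 7.01 and 10.2 CPM (−N) against 2.28, 2.96 and 4.04 (−E−N), log2 fold change −1.35 ± 0.23, adjusted p = 0.00176), were chosen after their values were seen. The letters searched were TCAAGGTCA (T form) and TCAAGGCCA (C form), on both strands, and capitals mark the match, which reads as its reverse complement where it lies on the other strand. Sequences are from RefSeq (GRCm38.p6), 5′ to 3′ on the strand of the gene, ending at the base before the RefSeq start, which need not be that of the GENCODE span given for a gene (the Khdc3 window lies within its GENCODE span):
Khdc3, chr9:73102148-73102397, plus strand, C form on the other strand: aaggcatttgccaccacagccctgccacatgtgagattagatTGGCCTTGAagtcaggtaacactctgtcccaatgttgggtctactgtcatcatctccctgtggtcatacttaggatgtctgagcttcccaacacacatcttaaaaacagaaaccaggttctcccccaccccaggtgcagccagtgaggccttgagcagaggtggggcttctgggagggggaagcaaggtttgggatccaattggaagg
Mitf, chr6:97991533-97991782, plus strand, C form on the other strand: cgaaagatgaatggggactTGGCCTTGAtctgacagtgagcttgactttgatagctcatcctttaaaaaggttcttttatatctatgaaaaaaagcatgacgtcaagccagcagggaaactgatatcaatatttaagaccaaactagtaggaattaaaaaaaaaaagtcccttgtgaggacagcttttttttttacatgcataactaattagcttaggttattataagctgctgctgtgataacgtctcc
Zfp42, chr8:43307010-43307259, minus strand, C form: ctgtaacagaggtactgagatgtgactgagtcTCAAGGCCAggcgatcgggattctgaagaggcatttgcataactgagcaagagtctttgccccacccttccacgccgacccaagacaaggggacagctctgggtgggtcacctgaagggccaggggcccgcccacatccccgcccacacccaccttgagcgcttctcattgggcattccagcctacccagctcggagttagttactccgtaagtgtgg
Bhmt, chr13:93637759-93638008, minus strand, T form: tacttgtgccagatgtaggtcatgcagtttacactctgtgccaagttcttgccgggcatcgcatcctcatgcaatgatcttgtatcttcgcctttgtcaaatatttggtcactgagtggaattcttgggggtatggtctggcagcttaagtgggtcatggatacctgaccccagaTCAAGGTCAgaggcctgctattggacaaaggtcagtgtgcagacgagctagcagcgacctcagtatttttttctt
The match ends 200 bases before the RefSeq start in Khdc3, 223 in Mitf, 210 in Zfp42 and 67 in Bhmt. Of all 32851 promoters of that table, taken as 300 bases from 250 before to 50 after the start, 331 (1.01%) hold either form. Among genes with a promoter there, 8 of 350 called lower, 1 of 336 called higher and 84 of 10526 tested (0.798%) hold it. No test compared this share between called and other genes. A promoter was found there for 73.3% of the genes tested, 72.5% of those called lower and 69.0% of those called higher. The shares describe only these genes. A match is a run of letters and not a site of binding.

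Trophectoderm genes mark the outer layer of the blastocyst. 12 of 14 were tested, of which 9 rose and 2 fell (median 1.51), and the list summed to 218 to 221 CPM in −N and to 431, 422 and 658 in −E−N. Whether cells of that type were present was not tested. Cdx2, the factor that specifies the lineage, was at 14.8, 4.43 and 5.10 CPM (−N) against 40.5, 47.8 and 53.5 (−E−N) (log2 fold change 2.54 ± 0.49, adjusted p = 0.00362), and its call was lost without −E−N 2, −E−N 3, −N 2 or −N 3, while without −N 1 the log2 fold change was 3.31. Ascl2, a helix-loop-helix factor of the placenta, was at 1.17, 2.40 and 2.10 CPM (−N) against 6.84, 6.23 and 12.5 (−E−N) (log2 fold change 2.17 ± 0.38, adjusted p = 0.00201). The keratins of simple epithelia rose together: Krt8 was at 47.8, 42.04 and 45.97 CPM (−N) against 110.0, 91.97 and 185 (−E−N) (log2 fold change 1.51 ± 0.23, adjusted p = 0.00101). Krt18, its partner in filaments, was at 31.9, 29.7 and 30.8 CPM (−N) against 82.6, 76.6 and 131 (−E−N) (log2 fold change 1.65 ± 0.20, adjusted p = 0.000184). Krt7 was at 5.83, 7.15 and 7.27 CPM (−N) against 18.996, 15.6 and 32.9 (−E−N) (log2 fold change 1.74 ± 0.28, adjusted p = 0.00126). These 3 and Ascl2 were called in every fit with a library left out, and −E−N 3 was the highest in each. Gata2 (1.51), Gata3 (1.16), Krt19 (1.35) and Tfap2c (0.75) rose as well, with adjusted p of 0.00738, 0.00828, 0.0091 and 0.00309. The first 3 were called in none of the fits with a library left out, and Tfap2c in 2, so that 4 (without −E−N 3, −N 2 or −N 3) to 6 genes of the list were called higher. 2 members fell in every fit: Tead4, which acts upstream of Cdx2 in the embryo, at 25.2, 29.2 and 29.2 CPM (−N) against 9.35, 11.2 and 8.45 (−E−N) (log2 fold change −1.53 ± 0.11, adjusted p = 6.31e-06), and Tfap2a, at 6.26, 8.10 and 6.87 CPM (−N) against 2.44, 2.85 and 2.54 (−E−N) (log2 fold change −1.44 ± 0.19, adjusted p = 0.000398). The trophectoderm factors Elf5 and Hand1 had 20 counts or fewer in all 6 libraries.

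Fewer genes of the other lineages were called. For primitive endoderm, 11 of 16 were tested, 2 rose and 1 fell, while Gata4, Gata6 and Sox7 had 20 counts or fewer throughout, and the list summed to 95.0 to 123 CPM in −N and 120.0 to 130.4 in −E−N. Foxa2, a forkhead factor of endoderm and streak, was at 1.81, 1.31 and 1.26 CPM (−N) against 6.26, 7.75 and 5.16 (−E−N) (log2 fold change 2.13 ± 0.34, adjusted p = 0.00128), and the laminin gene Lamb1 at 14.4, 11.9 and 12.04 CPM (−N) against 27.2, 26.1 and 42.8 (−E−N) (log2 fold change 1.33 ± 0.17, adjusted p = 0.000274). Another laminin gene, Lama1, was the list's fall, at 11.6, 11.6 and 12.001 CPM (−N) against 1.24, 1.13 and 2.17 (−E−N) (log2 fold change −2.95 ± 0.28, adjusted p = 3.14e-05). The 3 calls held in every fit with a library left out, and with the block Sox17 (1.68, adjusted p = 0.00217) and Pdgfra (0.87, adjusted p = 0.00415) were added. For mesoderm and streak, 8 of 14 were tested and Mesp1, Fgf8, Tbx6, Msgn1 and Lhx1 had 20 counts or fewer. Besides Msx1, Snai1 was called higher (0.98, adjusted p = 0.00991), in no fit with a library left out, and Gsc, a streak homeobox gene, was lower at 4.59, 4.28 and 5.10 CPM (−N) against 1.47, 1.13 and 1.25 (−E−N) (log2 fold change −1.85 ± 0.17, adjusted p = 3.15e-05). With the block Eomes (−1.16, adjusted p = 0.00745) and Kdr (−2.28, adjusted p = 0.00482) were lower too. For the neural list, 7 of 13 were tested. Sp8 was at 5.23, 3.92 and 5.43 CPM (−N) against 11.7, 11.6 and 13.02 (−E−N) (log2 fold change 1.32 ± 0.18, adjusted p = 0.000359) and Sox11 (1.41, adjusted p = 0.00923) was called but not without −E−N 1, −E−N 2, −E−N 3, −N 1 or −N 2. Tubb3 was lower with the block (−1.43, adjusted p = 5.69e-05).

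Genes of the 2-cell stage, a programme that a small share of ESCs enters at a time, all had positive changes: 7 of 9 were tested, with a median of 1.79. Only Zscan4d (6.33, 8.42 and 15.1 CPM (−N) against 21.9, 22.96 and 62.5 (−E−N), log2 fold change 1.85 ± 0.43, adjusted p = 0.00999) and Tcstv3 (0.213, 0.399 and 0.665 CPM (−N) against 1.56, 1.34 and 3.09 (−E−N), log2 fold change 2.22 ± 0.41, adjusted p = 0.0027) were called, and the summed level was 38.8 to 95.8 CPM in −N and 118 to 326 in −E−N, highest in replicate 3 of both states. With the block 6 were called, among them Zscan4c (block 1.76, adjusted p = 8.96e-07) and Zscan4f (block 1.78, adjusted p = 2.95e-07). With a library left out the count lay between 0 (without −E−N 3 or −N 2) and 3, and without −E−N 3 the log2 fold change of Zscan4d was 1.17. These genes have near-identical copies, between which reads cannot be divided with certainty. None of 13 germline genes was called by edgeR or DESeq2, 4 had an unadjusted p under 0.05, and with the block Taf7l was called (0.99, adjusted p = 0.00624).

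Of 18 imprinted genes tested 6 rose and none fell, with a median of 0.48. H19, the long non-coding RNA of the locus it shares with Igf2, was at 265, 241 and 229 CPM (−N) against 709.6, 639 and 1338 (−E−N) (log2 fold change 1.87 ± 0.25, adjusted p = 0.000341), and Igf2, a growth factor, at 71.6, 64.2 and 53.7 CPM (−N) against 159, 151 and 234 (−E−N) (log2 fold change 1.52 ± 0.16, adjusted p = 6.26e-05). The neighbours, which are expressed from opposite parental alleles in the embryo, rose in all pairs. Peg3, a zinc finger gene, was at 84.7, 74.5 and 62.9 CPM (−N) against 264, 336 and 561 (−E−N) (log2 fold change 2.39 ± 0.22, adjusted p = 3.14e-05). Peg10, derived from a retrotransposon and needed in the placenta, was at 335, 340.3 and 382 CPM (−N) against 1044, 1187 and 2967 (−E−N) (log2 fold change 2.30 ± 0.43, adjusted p = 0.0032), lost without −N 1, −N 2 or −N 3. Phlda2, which limits placental growth, was at 3.34, 4.28 and 4.80 CPM (−N) against 14.8, 12.2 and 53.7 (−E−N) (log2 fold change 2.70 ± 0.46, adjusted p = 0.00179), lost without −N 2. Cdkn1c (p57), a Cdk inhibitor, was at 3.06, 2.11 and 2.47 CPM (−N) against 10.9, 6.41 and 13.3 (−E−N) (log2 fold change 2.00 ± 0.30, adjusted p = 0.000868). In all 6 the highest library was −E−N 3. Without −E−N 3 all 6 were called, with smaller log2 fold changes of 1.70 for Phlda2 and 1.66 for Peg10, and over the 6 fits 4 to 6 were called.

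With a median of 0.44, and 30.8% called against 6.76% of all genes, 4 of 13 epithelial and mesenchymal genes rose. They hold both kinds: Esrp1, an epithelial splicing factor (0.640, 0.835 and 0.923 CPM (−N) against 2.44, 2.50 and 4.21 (−E−N), log2 fold change 1.93 ± 0.33, adjusted p = 0.0017), and Cldn6, a tight junction protein (4.76, 3.88 and 3.84 CPM (−N) against 11.5, 11.9 and 18.4 (−E−N), log2 fold change 1.74 ± 0.21, adjusted p = 0.000206), but also Zeb2, a repressor of E-cadherin (1.78, 1.20 and 2.10 CPM (−N) against 5.67, 5.99 and 7.50 (−E−N), log2 fold change 1.91 ± 0.31, adjusted p = 0.00128), and Snai1.

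In metabolism, 2 of 19 glycolysis and lactate genes fell, 10.5% called against 6.76% of all genes. Ldhb, the lactate dehydrogenase subunit that favours pyruvate, was at 139.9, 97.1 and 102 CPM (−N) against 27.8, 24.8 and 22.7 (−E−N) (log2 fold change −2.17 ± 0.20, adjusted p = 2.63e-05). Hk1, a hexokinase, was at 122, 109.6 and 126 CPM (−N) against 53.3, 50.95 and 45.7 (−E−N) (log2 fold change −1.25 ± 0.10, adjusted p = 1.57e-05). With the block Pfkp (−1.46, adjusted p = 3.31e-06) fell and the glucose transporter Slc2a1 (0.93, adjusted p = 0.000726) rose. Of 20 genes of the citrate cycle and oxidative phosphorylation 19 had negative changes, by little (median −0.22), and 10.0% were called. Neither share is far from that of all genes. Only Idh2 (69.3, 64.8 and 73.6 CPM (−N) against 33.5, 42.4 and 49.7 (−E−N), log2 fold change −0.73 ± 0.13, adjusted p = 0.00227) and Cox5a (229, 231 and 225 CPM (−N) against 157, 154 and 139.9 (−E−N), log2 fold change −0.60 ± 0.066, adjusted p = 9.23e-05) passed the fold limit, the first not without −N 3 and the second not without −E−N 3.

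Of 16 cell cycle genes 2 rose (12.5%, against 6.76% called among all genes), both Cdk inhibitors: Cdkn1c and Cdkn1a (p21), at 213, 156 and 149 CPM (−N) against 289, 277 and 253 (−E−N) (log2 fold change 0.66 ± 0.14, adjusted p = 0.00551), which was called in 1 of 6 fits with a library left out, that without −N 1. The Cdk inhibitors Cdkn1b, with 996, 889 and 1056 counts (−N) against 658, 741 and 834 (−E−N), and Cdkn2a, with 1188, 908 and 846 against 1334, 1163 and 1193, were not called. Of 13 p53 and stress response genes, Cdkn1a was the only one called higher. Gdf15 (3.16, 4.57 and 7.64 CPM (−N) against 1.21, 1.02 and 1.70 (−E−N), log2 fold change −1.97 ± 0.38, adjusted p = 0.00359) and Trib3 (36.3, 38.3 and 50.1 CPM (−N) against 17.1, 23.3 and 20.5 (−E−N), log2 fold change −1.03 ± 0.22, adjusted p = 0.0057) were called lower, and lost their calls without −E−N 1, −E−N 2, −N 2 or −N 3 and without −E−N 1, −E−N 2, −E−N 3, −N 2 or −N 3. Of 13 nuclear receptors tested, Nr0b1 alone was called, 7.69% against 6.76% of all genes. Nr6a1, the germ cell nuclear factor that represses Pou5f1, was at 94.4, 116 and 139.6 CPM (−N) against 161, 197 and 271 (−E−N), and passed with the block (0.83, adjusted p = 2.66e-05) and not without it (adjusted p = 0.0422). Esrra, a relative of Esrrb, was at 28.9, 32.6 and 36.3 CPM (−N) against 35.6, 39.3 and 42.9 (−E−N) (log2 fold change 0.27 ± 0.11, adjusted p = 0.0994).

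**Figure D3:**
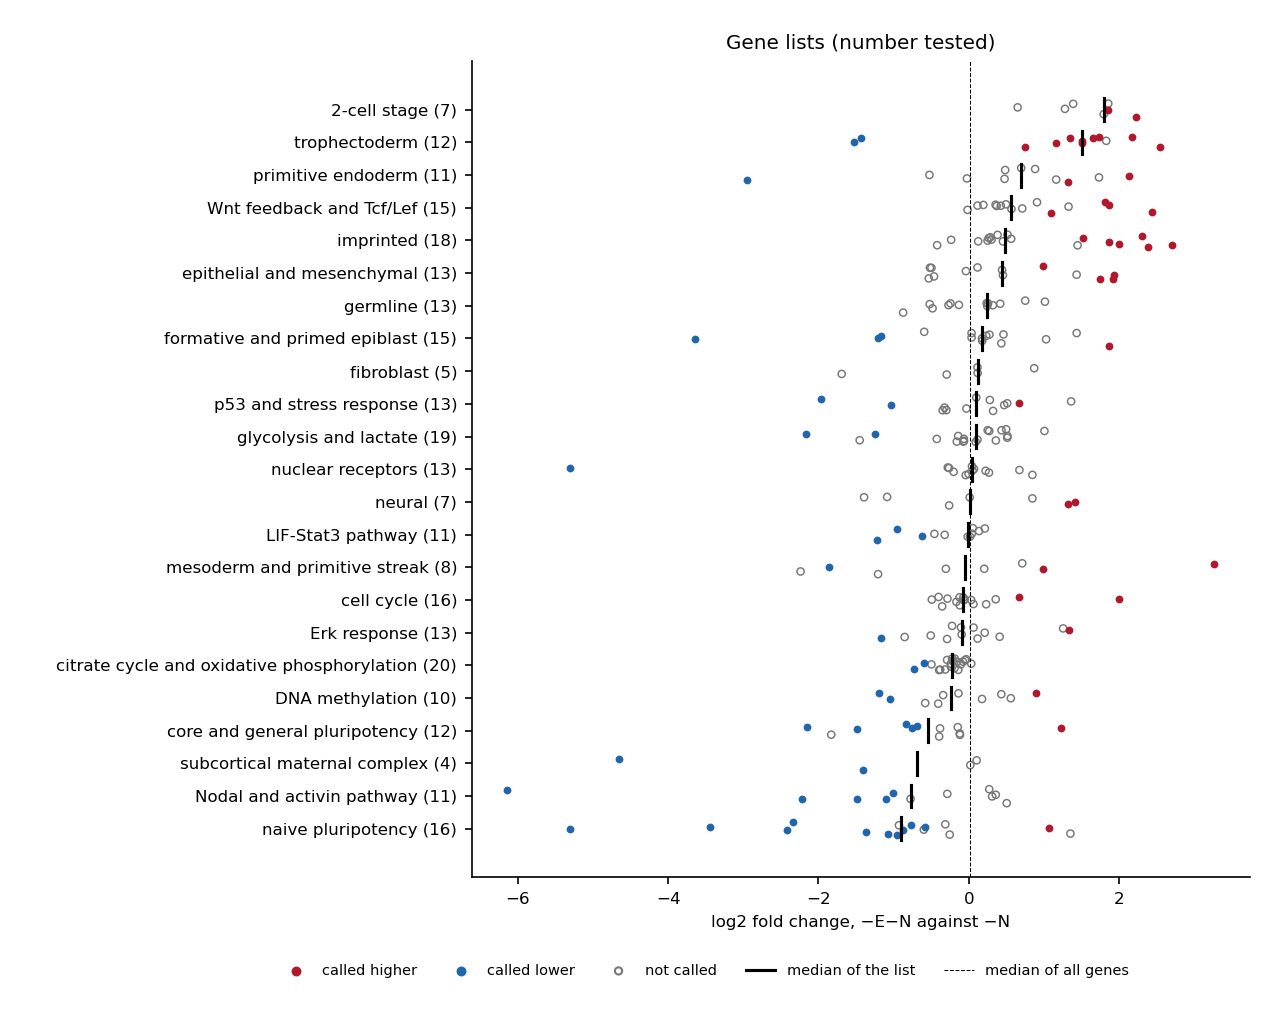
Log2 fold change (−E−N against −N, horizontal axis) of the members of each gene list (vertical axis, number tested in brackets), red where called higher, blue where called lower and open where not called. A black bar is the list's median and the broken line that of all genes (0.02). Otx2, in the formative list, is drawn at its fitted value, which is no measure of its fold. The naive list has the lowest median (−0.91) and the 2-cell (1.79) and trophectoderm (1.51) lists the highest.

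The response in NrKO cells was set against that of EKOiE cells with intact Nr5a2, in a fit of all 12 libraries of 2i/LIF. The 2 responses share no library. As given above, the Esrrb transcript fell less in EKOiE cells than in NrKO cells, though that difference did not pass the limit. Whether this unequal fall in transcript bears on the comparison was not tested. In EKOiE cells 223 genes (1.55%) were called between −E and +E+N, 63 higher (0.439%) and 160 lower (1.11%). Of the 970 genes called in NrKO cells 145 (14.9%) were among them, which is 65.0% of the 223, with the same sign in 143. Of the 970, 89.4% had the same sign in both lines, against 66.8% of all genes. The naive list had a median of −0.24 in EKOiE cells and the trophectoderm list one of −0.06.

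The difference between the 2 responses was called (adjusted p under 0.01, no limit on size) for 44 genes (0.307%), 30 more negative and 14 more positive in NrKO cells, and 1962 had an unadjusted p under 0.05. These directions are 0.209% and 0.0975% of the genes tested. Of the 30, 28 were called lower in NrKO cells, and of the 14, 11 were called higher. The NrKO response is a term of the difference, so these counts follow in part from how the genes were chosen. The responses had opposite signs in 23. The block raised the count to 324 genes (142 more positive, 182 more negative). Without the block, the count of 44 fell in most fits that left out a library. Such a fit has fewer libraries to test with, and whether that alone lowered the count was not tested. It was 7 without −N 2, 10 without +E+N 2, +E+N 3 or −N 3, 11 without −E 2, 16 without +E+N 1, 17 without −E 1, 21 without −E−N 3, 23 without −E−N 2 and 24 without −E 3, against 40 without −E−N 1 and 52 without −N 1.

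Notch4 had the largest difference by the naming rule. It was at 15.7, 15.9 and 17.9 CPM (+E+N), 19.3, 20.4 and 15.9 (−E), 23.8, 24.1 and 25.5 (−N) and 3.78, 2.39 and 1.46 (−E−N) (difference −3.43 ± 0.31, adjusted p = 0.000566). It was low in −E−N alone, and its change in EKOiE cells did not pass (0.17 ± 0.21, adjusted p = 0.703). Slc15a1 fell in both lines and further in NrKO cells, from 13.9, 12.2 and 15.4 to 4.06, 4.56 and 4.47 against 12.5, 9.95 and 12.4 to 0.977, 0.211 and 0.475 (−2.70 ± 0.41, adjusted p = 0.00913). Lefty2 rose in EKOiE cells, from 9.55, 8.33 and 6.70 to 21.9, 17.04 and 22.4, and fell in NrKO cells (−2.33 ± 0.29, adjusted p = 0.00388). Lefty1 rose in EKOiE cells, from 6.11, 6.46 and 4.32 to 22.4, 21.6 and 32.3, and both NrKO states lay above these values (−2.46 ± 0.35, adjusted p = 0.00645). The difference of Notch4 held with any of the 12 libraries left out, that of Lefty2 in 8 fits, and those of Slc15a1 and Lefty1 in 2 and 3.

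Among the genes with a more positive response, Fabp3, a fatty acid carrier, was at 51.6, 37.8 and 50.1 CPM (+E+N) and 4.53, 8.17 and 8.88 (−E), but at 78.9, 60.8 and 69.98 (−N) and 82.96, 73.4 and 98.9 (−E−N) (2.98 ± 0.29, adjusted p = 0.000626). It fell in EKOiE cells (−2.69 ± 0.22, adjusted p = 2.73e-05) and did not pass in NrKO cells (log2 fold change 0.28 ± 0.19, adjusted p = 0.333). Krt8, which rose in NrKO cells, was at 10.5, 5.87 and 8.36 CPM in +E+N and 3.64, 2.44 and 3.28 in −E, a change that did not pass (−1.41 ± 0.30, adjusted p = 0.0161), and its difference was 2.92 ± 0.38, adjusted p = 0.00435. Eif4g3, a translation factor, fell in EKOiE cells and rose in NrKO cells, from 7.56, 9.47 and 9.63 to 3.35, 5.30 and 4.98 against 20.1, 29.4 and 25.5 to 57.7, 51.1 and 61.4 (2.15 ± 0.25, adjusted p = 0.00286). Fst (follistatin, which binds activin) and the receptor Gprc5c rose in NrKO cells (log2 fold changes 1.99 and 1.71, against −0.10 and −0.22 in EKOiE cells), with differences of 2.08 and 1.93. Padi2, a deiminase, fell in both and less in NrKO cells (−1.10 against −2.90). Fabp3 and Eif4g3 were called in all 12 fits with a library left out, Padi2 in 8, Krt8 in 5, Fst in 4 and Gprc5c in 3.

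**Figure D4:**
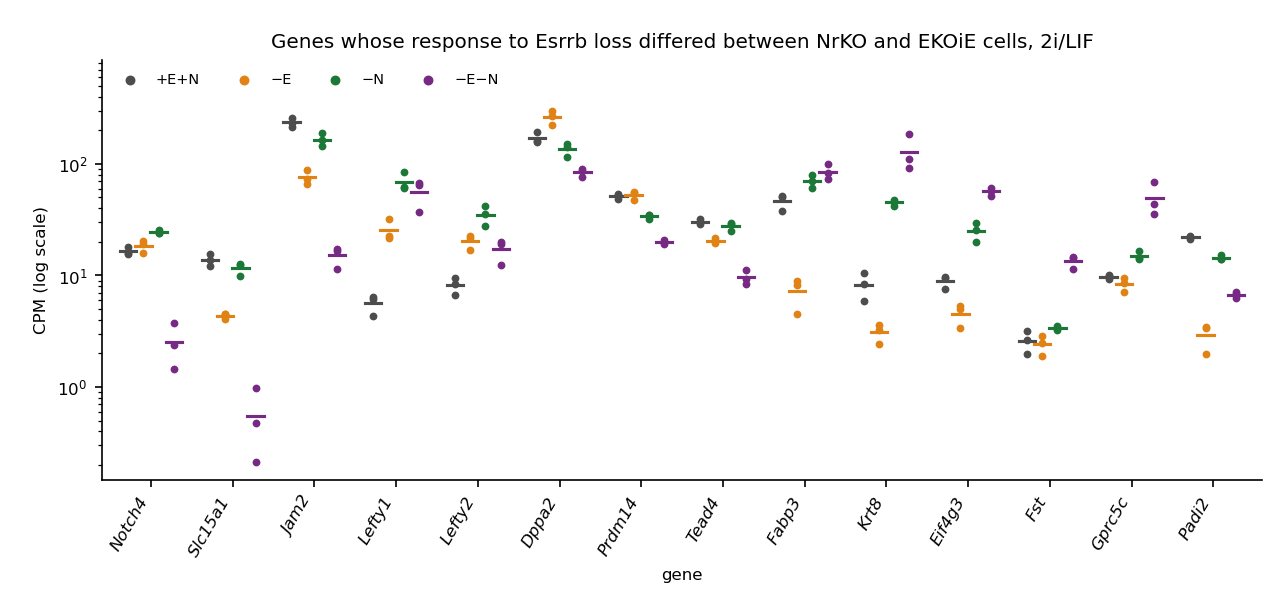
CPM on a log scale (vertical axis) in each of the 12 libraries of 2i/LIF for 14 genes (horizontal axis) whose response differed between the lines, with a bar at the mean of 3. Notch4 is low in −E−N alone (1.46 to 3.78 CPM), Fabp3 is low in −E alone (4.53 to 8.88), and Krt8 is highest in −E−N, at up to 185.

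Of the 306 genes of the lists, tested or not, 9 are among the 44, against 0.307% of all genes tested. Besides Krt8, Lefty1 and Lefty2 these are Jam2, Dppa2, Prdm14, Pim1 (difference −0.91 ± 0.13, adjusted p = 0.00733), Tead4 (−0.97 ± 0.15, adjusted p = 0.00932) and Ooep (−1.02 ± 0.16, adjusted p = 0.00935), all more negative in NrKO cells. Prdm14 was at 53.4, 52.6 and 48.7 CPM in +E+N and 54.5, 55.5 and 47.3 in −E (0.02 ± 0.077, adjusted p = 0.899) and fell in NrKO cells (difference −0.80 ± 0.11, adjusted p = 0.00638). Dppa2, which fell in NrKO cells, was at 156, 161 and 193 CPM in +E+N and 297, 223 and 266 in −E, short of the limits (0.62 ± 0.13, adjusted p = 0.0124), with a difference of −1.31 ± 0.18, adjusted p = 0.00611. Jam2 fell in both, from 214, 234 and 259 to 87.9, 73.8 and 66.3 in EKOiE cells (difference −1.81 ± 0.21, adjusted p = 0.00328). The difference of Jam2 was called in 10 of 12 fits with a library left out, that of Dppa2 in 4, and those of the other 4 in 1 or 2.

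**Figure D5:**
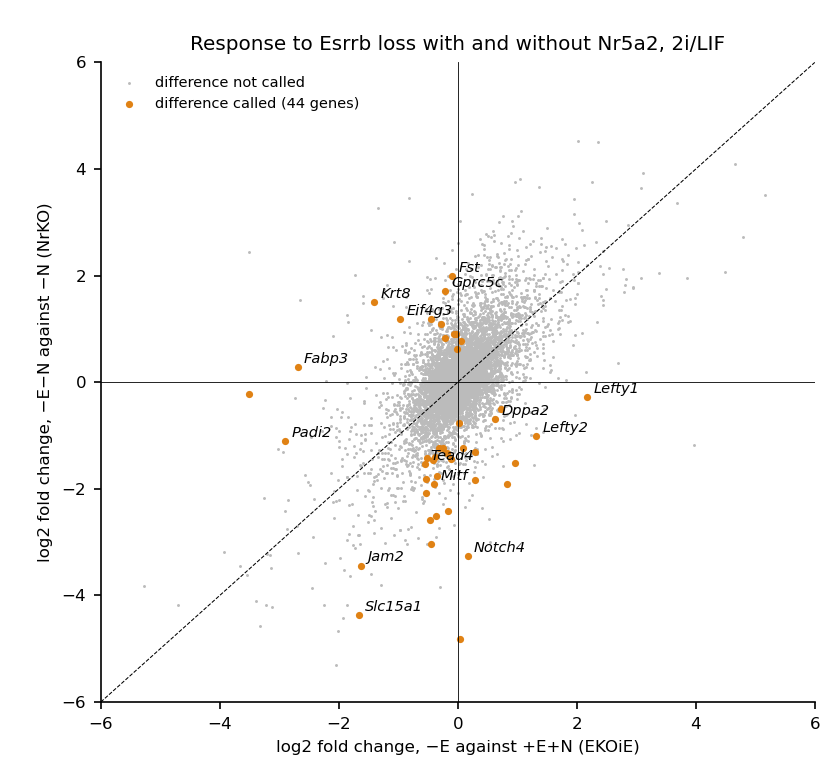
Log2 fold change on Esrrb loss in NrKO cells (−E−N against −N, vertical axis) against that in EKOiE cells (−E against +E+N, horizontal axis), 1 point per gene of 14355, orange where the difference was called (44 genes). The broken line marks equal responses, and 7 genes lie outside the axes, which end at 6. Notch4, Slc15a1 and Jam2 lie below the line, and Fabp3, Krt8 and Padi2 above it.

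The same withdrawal in NrKO cells of FCS/LIF, with 2 libraries per state, was fitted together with all 20 RNA-seq libraries, over 16147 genes. Medium and batch of culture cannot be told apart there. In FCS/LIF 920 genes (5.7%) were called, 501 higher (3.1%) and 419 lower (2.59%). Of the 970 called in 2i/LIF 296 (30.5%) were called in FCS/LIF as well, 35.8% of the 827 called there among the genes tested in 2i/LIF, with 291 of the same sign. The difference between the media was called for 281 genes (1.74%), 109 more positive and 172 more negative in 2i/LIF (0.675% and 1.07%), and 2900 had an unadjusted p under 0.05. The block called 981. Of the FCS/LIF libraries, leaving out −E−N 2 gave 89, −N 1 gave 107, and −E−N 1 or −N 2 gave 142 each. Of those of 2i/LIF, −N 2 gave 184, and the highest count was 302 without −E−N 3. A state of FCS/LIF with 1 library left is assumed to vary like the others.

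Several naive factors changed less in 2i/LIF than in FCS/LIF. Zfp42 changed by −0.90 in 2i/LIF and −3.10 in FCS/LIF (log2, difference 2.20 ± 0.17, adjusted p = 2.16e-06), Klf4 by −1.39 in 2i/LIF and −2.94 in FCS/LIF (1.55 ± 0.21, adjusted p = 0.000502), Klf2 by −0.27 in 2i/LIF and −1.71 in FCS/LIF (1.44 ± 0.18, adjusted p = 0.000195) and Tfcp2l1 by −0.61 in 2i/LIF and −1.95 in FCS/LIF (1.34 ± 0.19, adjusted p = 0.000726). These 4 differences held with any 1 library left out. Esrrb itself also fell less, by −1.76 in 2i/LIF and −2.99 in FCS/LIF (1.23 ± 0.25, adjusted p = 0.00739), in 1 of 10 fits with a library left out. Over the naive list the median change was −1.80 in FCS/LIF, against −0.91. Gbx2 rose in 2i/LIF alone (1.05 in 2i/LIF and −0.13 in FCS/LIF, difference 1.18 ± 0.16, adjusted p = 0.000374).

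Nodal fell in 2i/LIF and not in FCS/LIF (−2.24 in 2i/LIF and 0.64 in FCS/LIF, difference −2.88 ± 0.29, adjusted p = 5.54e-05). Pim1 fell in 2i/LIF and rose in FCS/LIF (−1.25 in 2i/LIF and 0.61 in FCS/LIF, difference −1.86 ± 0.15, adjusted p = 2.62e-06). Tead4 (−1.55 in 2i/LIF and 0.21 in FCS/LIF, −1.76 ± 0.19, adjusted p = 7.06e-05) and Lama1 (−2.97 in 2i/LIF and −0.43 in FCS/LIF, −2.55 ± 0.33, adjusted p = 0.000318) fell in 2i/LIF. Sp8 rose in both media, and less in 2i/LIF (1.30 in 2i/LIF and 3.88 in FCS/LIF, −2.58 ± 0.27, adjusted p = 6.16e-05). All 5 differences held with any 1 library left out. Among rises, Gadd45g (2.72 in 2i/LIF and 0.46 in FCS/LIF, difference 2.26 ± 0.30, adjusted p = 0.000374) held likewise, and Ascl2 (2.15 in 2i/LIF and −0.34 in FCS/LIF, difference 2.49 ± 0.42, adjusted p = 0.00222) in 6 of 10 fits. Among the largest differences by the naming rule were those of Notumos (0.55 in 2i/LIF and −3.02 in FCS/LIF), Mymx, a protein of muscle cell fusion (0.05 in 2i/LIF and −3.20 in FCS/LIF), the Wnt inhibitor Notum (0.35 in 2i/LIF and −2.75 in FCS/LIF), H2-M5 (−0.40 in 2i/LIF and −3.05 in FCS/LIF) and the guidance cue Ntn1 (0.08 in 2i/LIF and −2.33 in FCS/LIF) in the positive direction, beside Ascl2. In the negative direction they included those of Slco2a1, a prostaglandin carrier (−2.88 in 2i/LIF and 1.00 in FCS/LIF), Trim67 (−1.31 in 2i/LIF and 1.98 in FCS/LIF), Tmc7 (−2.53 in 2i/LIF and 0.52 in FCS/LIF) and Kbtbd11 (−2.64 in 2i/LIF and 0.36 in FCS/LIF), beside Nodal. These held with any 1 library left out, except Ntn1, which held in 1 of 10 fits, and Ascl2, as given above.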

How the data were processed

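RNA-seq was analysed from 6 libraries of EKOiE NrKO ESCs in 2i/LIF (3 −N, 3 −E−N), fitted with the 3 +E+N and 3 −E libraries. Poly-A RNA was sequenced as stranded paired ends. The authors aligned reads with STAR to mm10 and estimated values with RSEM. They deposited expected counts, already rounded to whole numbers, and TPM values. Bowtie2 is also named in the submitters' processing notes, with no role given. The tables list 54146 gene rows.

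Groups were taken from the sample labels. A gene was kept where every replicate of some state reached 20 counts, and counts were fitted with the edgeR quasi-likelihood test (edgeR 4.0.16, R 4.3.3, TMM scaling). Genes were called at a Benjamini-Hochberg adjusted p under 0.01 and, for differences between states, a fold change over 1.5. The difference between NrKO and EKOiE responses was an interaction term in this fit. That between media was taken from a fit of all 20 RNA-seq libraries. Totals of 26653035 to 30685767 counts gave the precision of the 6 libraries, and counting error alone is smaller than the spread between replicates. An exact permutation test of 3 against 3 cannot go below p = 0.1, so single genes were tested only within the fit. Scripts were tested on simulated data.

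No label pairs the libraries. Replicate numbers appeared to pair them, as judged from the data: deviations from the group means correlated between −N and −E−N libraries of the same number (0.421, 0.155 and 0.450), as between −E and +E+N (0.483, 0.187 and 0.381). Between −E−N 2 and +E+N 2 the value was −0.0126. A fit with the number as a block was therefore run beside the main one.

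Alternatives were DESeq2 1.42.0, DESeq2 size factors, other filters and limits, limma 3.58.1 on log2(TPM + 1) or log2(TPM + 0.1), other sets of libraries, and leaving out each library. The block within the 6 libraries and the alternatives for single differences and lists were added after seeing the data. Named are Esrrb and Nr5a2, members of 23 gene lists (306 genes), the 12 largest rises and falls and the 6 largest differences in each direction among called genes averaging 100 counts or more, less genes without a proper symbol. 1 gene that this rule names is not reported here. The members and lists were chosen with earlier results of these data known. Coordinates are from GENCODE vM21. Promoters and their build are those of RefSeq, and exon 4 was read from the mm10 genome. Figures used matplotlib 3.10.9.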

Additional observations from a re-analysis of the deposited data

Results flagged for a closer look

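The difference between the response to Esrrb loss in NrKO and in EKOiE cells was tested as an interaction term and called for 44 genes. Among those named, the response was more positive in NrKO cells for Fabp3 (log2 difference 2.98), Krt8 (2.92), Eif4g3 (2.15), Fst (2.08), Gprc5c (1.93) and Padi2 (1.80). It was more negative for Notch4 (−3.43), Slc15a1 (−2.70), Lefty1 (−2.46), Lefty2 (−2.33), Jam2 (−1.81), Mitf (−1.52), Dppa2 (−1.31), Ooep (−1.02), Tead4 (−0.97), Pim1 (−0.91) and Prdm14 (−0.80). Of these 17, the differences of Fabp3, Krt8, Eif4g3, Notch4 and Lefty2 were also called by limma on log2(TPM + 1). The Esrrb transcript fell less in EKOiE cells, and whether this bears on these differences was not tested.

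The difference between the response in 2i/LIF and in FCS/LIF was tested in the same way and called for 281 genes. Among those named, it was more positive in 2i/LIF for Notumos (3.57), Mymx (3.25), Notum (3.09), H2-M5 (2.65), Ascl2 (2.49), Ntn1 (2.41), Gadd45g (2.26), Zfp42 (2.20), Scube1 (2.13), Esrp1 (1.75), Lef1 (1.61), Klf4 (1.55), Klf2 (1.44), Tfcp2l1 (1.34), Esrrb (1.23), Gbx2 (1.18), Jam2 (1.18) and Prdm14 (1.10). It was more negative for Slco2a1 (−3.88), Trim67 (−3.28), Tmc7 (−3.05), Kbtbd11 (−3.0), Nodal (−2.88), Sp8 (−2.58), Lama1 (−2.55), Gsc (−2.04), Pim1 (−1.86), Tead4 (−1.76), Padi2 (−1.46), Mitf (−1.21) and Smad7 (−1.08). Medium and batch of culture cannot be told apart in these differences.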

How the results depend on the processing

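Against 970 genes called, the replicate block gave 1622 and an adjusted p under 0.05 gave 1581. The 6 compared libraries alone gave 671, of which 638 were among the 970. Limma gave 688 on log2(TPM + 1) and 682 on log2(TPM + 0.1), with 621 and 641 among the 970. Against 487 higher, the block gave 936, limma on log2(TPM + 0.1) 323, the 6 compared libraries alone 318, those with the block 833, all 20 libraries 737 and an adjusted p under 0.05 891. Against 483 lower, limma on log2(TPM + 1) gave 318 and no fold limit 729. With 1 library left out, these counts spanned 510 to 856, 180 to 448 and 312 to 484. Against 44 differences between NrKO and EKOiE cells, DESeq2 gave 303, no filter 212, the block 324, limma 11 (TPM + 1) and 7 (TPM + 0.1), an adjusted p under 0.05 200, and leaving out 1 library 7 to 52. Against 281 differences between media, DESeq2 gave 706, no filter 926, the block 981, limma on log2(TPM + 1) 467, an adjusted p under 0.05 774, and leaving out 1 library 89 to 302. Esrrb kept its call with 1 library left out (−1.87 to −1.55). Nr5a2 was no longer called by limma (−0.94) or without 4 of the 6 libraries (−1.30 to −0.76). The sign turned for 2 genes that were not called: Mymx (from −0.091 without −N 1 to 0.22 without −N 3) and Ntn1 (from −0.13 without −E−N 1 to 0.33 without −E−N 3). The cause of these shifts was not tested. Beside the block values given with the results, the replicate block called Esx1 (1.69, adjusted p = 0.00226), Dlk1 (1.45, adjusted p = 0.00334), Zscan4a (1.26, adjusted p = 0.000126) and Zfp352 (1.33, adjusted p = 0.00896) higher and changed no other call of a list member or of a gene named by size of change. Depth limits the genes with few counts, such as Otx2 and Khdc3.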

Other observations

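Pvalb (parvalbumin, a calcium-binding protein of fast muscle and some neurons) was chosen after its values were seen. It had 162, 123 and 177 counts in −N and 0 in each −E−N library. Against a floor of 3 counts per library it was at least 54.9-fold lower in −E−N, and no fold from the fit is given.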
